A study of Homo sapiens with 12 samples.

Results

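ERBB2 and 9 genes that lie beside it on chromosome 17 (GRB7, STARD3, PGAP3, MIEN1, TCAP, IKZF3, CDK12, ORMDL3 and MED1) were followed through 12 RNA-seq libraries. The libraries are of cell lines that the study describes as ovarian cancer lines. The 10 genes were chosen by position and name, with earlier results of these data known. Each was found under 1 Ensembl ID among the 60669 IDs of the count table. All 10 passed the filter on low counts that left 18720 genes for testing. The libraries came from 6 lines, each with a vehicle (buffer) library and a library after 8 µM quinacrine (QC, an acridine antimalarial) for 6 h. HeyA8, SKOV3 and OV2008 are the sensitive lines. HeyA8_MDR (carboplatin-resistant), SKOV3_TR (taxol-resistant) and OV2008_C13 (cisplatin-resistant) are their resistant isogenic partners. Each line and treatment had 1 library, so a line was the replicate. Each line and its partner share an origin, so p-values measure the spread between these lines and not between tumours of separate patients. In the comparison of the SKOV3 lines with the other families, that spread was the one between a line and its partner. The spread between families did not enter it.

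ERBB2 encodes HER2, a receptor tyrosine kinase of the EGFR family that has no known ligand of its own and signals by pairing with EGFR or ERBB3. In some breast, gastric and ovarian tumours a stretch of 17q12 around ERBB2 is present in many copies, and the genes beside ERBB2 are then gained with it. SKOV3 is widely used as a line with such a gain. DNA copy number was not measured here, and the values below are RNA levels only.

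The depth of a library, as reads assigned to genes, ran from 17782556 to 30585059 (median 22289428). Levels are given as CPM, counts per 1e6 of a library size scaled by edgeR's TMM method. Keratins of simple epithelia were present in every line, and the 9 epithelial markers summed to between 1517 and 8221 CPM of the unscaled library. In the HeyA8 and HeyA8_MDR libraries KRT7, KRT8 and KRT18 carried that sum, while KRT19 had 2 to 8 counts, CDH1 0 to 5 and MUC16 0 to 5, and EPCAM had 66 and 51 counts in HeyA8 and 1 and 0 in HeyA8_MDR. The 6 squamous markers summed to between 3220 and 13570 CPM in the OV2008 and OV2008_C13 libraries, to between 28.6 and 59.1 in SKOV3_TR and to at most 0.243 elsewhere. PAX8, a marker of Müllerian epithelia such as that of the fallopian tube, ran from 7.55 to 24.7 CPM in the OV2008 and OV2008_C13 libraries and from 234 to 479 CPM in the other 8 libraries. WT1, another ovarian marker of the list, had 22 to 123 counts in the SKOV3 lines and 46 to 91 in the OV2008 lines, without that split. The tissue of origin of the OV2008 lines was not tested. The 5 leukocyte markers summed to at most 2.86 CPM, the 5 fibroblast markers to between 1.42 and 46.9 CPM, and the 2 endothelial markers with an ID to between 0 and 156 CPM, highest in the HeyA8 lines. In bulk RNA, fewer cells with a transcript and less of it per cell cannot be told apart. The HeyA8 QC library stood apart from the other QC libraries. The 56 genes at least 8-fold higher in HeyA8_MDR than in HeyA8 without drug had moved, in that library, by a median of 68.2% of the log2 distance towards HeyA8_MDR, and the 113 genes at least 8-fold lower by 23.4%. In the other 5 QC libraries the same measures towards the partner line were at most 16.5% and 13.6%. QC results are therefore also given without HeyA8.

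ERBB2 lies on the plus strand at chr17:39688094-39728658 (GRCh38.p14). In the vehicle libraries it was at 66.2 CPM in HeyA8, 60.2 in HeyA8_MDR, 133 in OV2008 and 81.7 in OV2008_C13, against 8518 in SKOV3 and 4020 in SKOV3_TR. After QC it was at 38.2 CPM in HeyA8, 34.7 in HeyA8_MDR, 98.4 in OV2008 and 76.1 in OV2008_C13, against 7122 in SKOV3 and 3519 in SKOV3_TR. The 4 libraries of the SKOV3 lines did not overlap with the other 8, and the lowest of them was 26.5-fold above the highest of the others. ERBB2 alone took 0.944% of the counted reads of the SKOV3 vehicle library (95% exact binomial interval 0.94% to 0.948%, which covers counting error only) and was its gene with rank 2 by counts. It ranked 3 in SKOV3 with QC, 6 in SKOV3_TR and 13 in SKOV3_TR with QC. In the other libraries its rank lay between 1605 and 5444.

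PGAP3, which remodels the lipid part of GPI anchors, is read in the opposite direction and starts 36 bases from the first RefSeq start of ERBB2. This interval is shown because both genes are transcribed away from it and both were high in the SKOV3 lines. Counts per gene do not show which start of ERBB2 was used, so the interval is not tied to its level. The capitals mark matches to the ETS motif CCGGAAG on either strand.
between PGAP3 and ERBB2, chr17:39688058-39688093, plus strand: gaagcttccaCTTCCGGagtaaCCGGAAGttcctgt
The interval holds 2 such matches that do not overlap. Of 35116 RefSeq windows, each the 250 bases before a start and so longer than this interval, 8.52% hold at least 1 match. The motif was chosen after the sequence had been seen, and a match is a description of letters and not of binding.

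Without drug, PGAP3 was at 8.10 CPM in HeyA8, 10.8 in HeyA8_MDR, 12.5 in OV2008, 6.88 in OV2008_C13, 164 in SKOV3 and 147 in SKOV3_TR. With QC the values were 7.92, 7.39, 8.63, 4.78, 147 and 91.4 CPM in the same order. The SKOV3 lines were again the high ones in each treatment, without overlap.

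MIEN1, a small membrane-anchored protein linked to cell migration, lies on the other side of ERBB2 on the minus strand, at chr17:39728510-39730532, and overlaps the end of ERBB2 by 149 bases. The strand setting of the counting is not given in the sources used here, so reads from these 149 bases cannot be assigned with certainty. MIEN1 was at 24.3 CPM in HeyA8, 38.5 in HeyA8_MDR, 55.2 in OV2008 and 37.6 in OV2008_C13, against 2015 in SKOV3 and 751 in SKOV3_TR. After QC it was at 43.5, 38.6, 58.2 and 29.5 CPM in the first 4 lines, and at 1742 and 681 CPM in the SKOV3 lines. The lowest SKOV3-line library was 11.7-fold above the highest of the others.

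GRB7 (chr17:39737938-39747285) encodes an SH2 adaptor that binds phosphorylated HER2. Its level differed widely among the families. In the HeyA8 and HeyA8_MDR libraries it had between 4 and 6 counts. Without drug it was at 27.5 CPM in OV2008, 14.1 in OV2008_C13, 154 in SKOV3 and 551 in SKOV3_TR. With QC it was at 63.0 CPM in OV2008, 34.1 in OV2008_C13, 95.03 in SKOV3 and 570 in SKOV3_TR. Here SKOV3_TR, not SKOV3, held the highest level, and the lowest SKOV3-line library was 1.51-fold above OV2008 with QC.

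STARD3 (chr17:39637144-39664201) encodes a protein of late endosomes that moves cholesterol. It was at 69.6 CPM in HeyA8, 63.8 in HeyA8_MDR, 47.0 in OV2008 and 39.8 in OV2008_C13, and at 598 in SKOV3 and 377 in SKOV3_TR. With QC these were 63.9, 69.3, 51.2 and 35.3 CPM, and 459 and 371 CPM. TCAP (chr17:39665349-39666554), the titin cap of muscle sarcomeres, was low in every line. It was at 11.4 and 8.82 CPM (272 and 299 counts) in SKOV3 and SKOV3_TR without drug, had 168 and 189 counts there with QC, and had between 2 and 20 counts in the 8 libraries of the other lines. The groups of lines did not overlap for either gene.

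The sequences before STARD3 and MIEN1 are shown as the starts of the outermost of the strongly raised members with a RefSeq window on each side of ERBB2. Capitals mark the GC box GGGCGG, the AP-2 motif GCCNNNGGC and the ETS motif CCGGAAG, on either strand.
STARD3, chr17:39636894-39637143, plus strand, 250 bases before the start: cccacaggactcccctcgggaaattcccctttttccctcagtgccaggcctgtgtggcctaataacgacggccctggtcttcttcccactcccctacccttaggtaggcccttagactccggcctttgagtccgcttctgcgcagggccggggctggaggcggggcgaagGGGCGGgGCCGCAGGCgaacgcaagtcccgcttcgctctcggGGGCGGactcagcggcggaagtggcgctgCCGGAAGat
MIEN1, chr17:39730533-39730782, minus strand, 250 bases before the start: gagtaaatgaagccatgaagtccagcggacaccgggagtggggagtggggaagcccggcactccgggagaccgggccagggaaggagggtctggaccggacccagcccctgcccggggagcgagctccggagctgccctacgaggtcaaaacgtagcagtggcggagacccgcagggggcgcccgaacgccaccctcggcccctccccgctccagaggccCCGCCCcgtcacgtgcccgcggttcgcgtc
The STARD3 stretch holds 2 GC boxes, 1 AP-2 motif and 1 ETS motif, and the MIEN1 stretch holds 1 GC box. Over all RefSeq windows, 42.6% hold a GC box and 19.8% an AP-2 motif. These are the letters in the reference, and the data hold no measure of binding.

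The remaining 4 genes lie farther out and differed less. CDK12 (chr17:39461486-39567559), a kinase of the RNA polymerase II tail, was at 198 CPM in SKOV3 and 254 in SKOV3_TR, within the range of 70.3 to 270 CPM of the other lines without drug. MED1 (chr17:39404285-39451263), the Mediator subunit that contacts nuclear receptors, was at 271 and 249 CPM in the SKOV3 lines and between 78.9 and 214 CPM in the others. ORMDL3 (chr17:39921041-39927601), which restrains sphingolipid synthesis, was at 94.4 and 72.7 CPM in the SKOV3 lines and between 24.9 and 40.5 CPM in the others. With QC the SKOV3 lines were at 178 and 266 CPM for CDK12, 306 and 219 for MED1 and 97.9 and 62.6 for ORMDL3. IKZF3 (chr17:39757715-39864312), a lymphoid zinc finger factor, had 32 and 39 counts in SKOV3 and SKOV3_TR and 39 and 18 counts in OV2008 and OV2008_C13, and 0 and 1 count in HeyA8 and HeyA8_MDR.

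**Figure D1:**
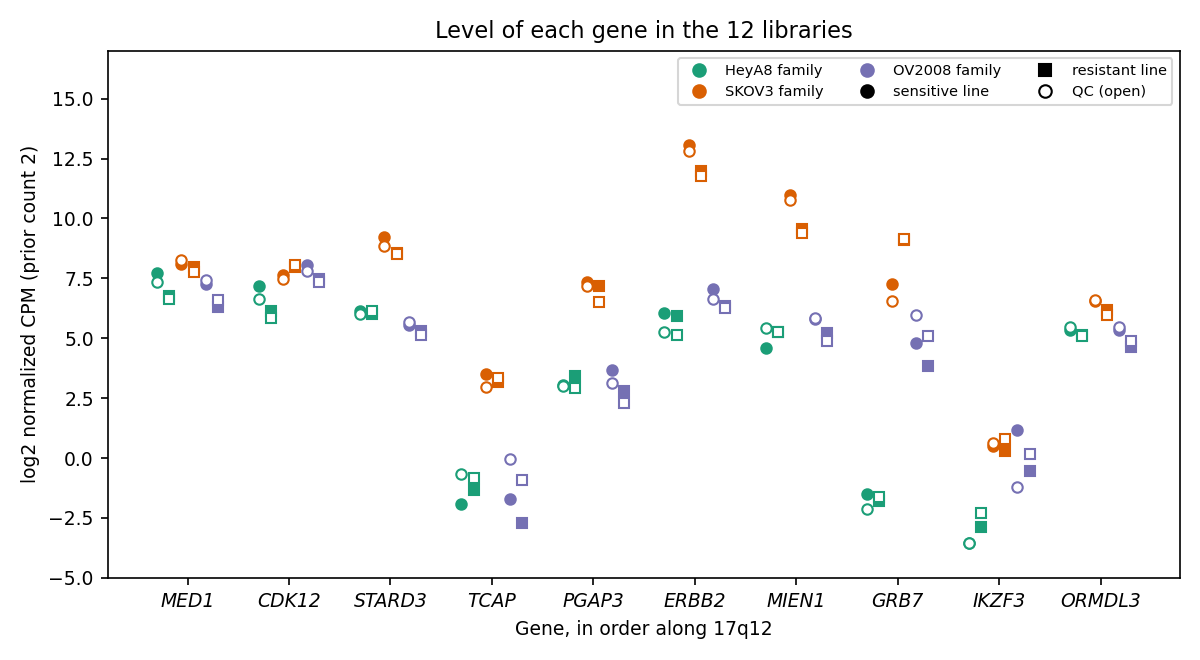
Level of the 10 genes in the 12 libraries, in order along the chromosome. The y axis is the log2 of TMM-normalized CPM with a prior count of 2, colours are the line families, circles sensitive and squares resistant lines, filled points vehicle and open points QC, and each point is 1 library. The SKOV3 and SKOV3_TR points stand above all others from STARD3 to GRB7 and mix with the others for CDK12 and IKZF3.

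Per kilobase of the annotated canonical transcript, the highest levels in SKOV3 were those of ERBB2 and MIEN1, at 1869 and 1443 CPM per kb in the vehicle library. STARD3 was at 216, GRB7 at 69.1, PGAP3 at 61.2, ORMDL3 at 44.8, MED1 at 33.3, CDK12 at 23.9, TCAP at 11.8 and IKZF3 at 0.137 CPM per kb. In SKOV3_TR the order of the first members was ERBB2 at 882, MIEN1 at 538, GRB7 at 247, STARD3 at 136 and PGAP3 at 54.7 CPM per kb. In HeyA8, where none of these levels was high, STARD3 at 25.1 CPM per kb lay above MIEN1 at 17.4 and ERBB2 at 14.5. With 1 library per line and treatment, neighbours in these orders have no replicate error of their own.

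Which members were higher in the SKOV3 lines was tested over the 6 vehicle libraries, as SKOV3 and SKOV3_TR against the mean of the HeyA8 and OV2008 families. The family was the model term, so the spread between families is not in the standard errors and p-values. Of the 10 members, 7 were higher with an adjusted p under 0.05 by edgeR's quasi-likelihood test, and 0 were lower, also at an unadjusted p under 0.05. Over all genes tested, 11.3% were called higher and 6.39% lower. Of the calls, 63.9% were higher, and 76.3% when libraries were scaled by size alone, which moved the median of all genes by 0.26 on the log2 scale. ERBB2 then stood at 6.50, and CDK12 and MED1 still did not pass. GRB7 had a log2 fold change of 7.30 ± 0.61 (SE, adjusted p 0.00245), and ERBB2 one of 6.25 ± 0.42 (adjusted p 0.00139), a 76.2-fold difference. The values of TCAP, MIEN1, PGAP3 and STARD3 were 5.75, 5.18, 4.02 and 3.18 on the log2 scale, with edgeR adjusted p-values of 0.00499, 0.00261, 0.00261 and 0.00285. ORMDL3 rose by 1.25 ± 0.33 (adjusted p 0.0410). IKZF3 (2.63 ± 0.96, adjusted p 0.102), MED1 (0.93 ± 0.39, adjusted p 0.141) and CDK12 (0.54 ± 0.38, adjusted p 0.352) did not pass. The call of ORMDL3 was lost when any 1 line was left out, with edgeR adjusted p-values between 0.0626 and 0.137, while the other 6 kept theirs. Against the OV2008 lines alone the difference of GRB7 was 4.09, and against the HeyA8 lines alone it was 10.50, where the HeyA8 counts were 4 to 6. Against the OV2008 lines alone TCAP (6.15), ERBB2 (5.87) and MIEN1 (4.90) had larger differences than GRB7, and without SKOV3_TR ERBB2 (6.69) had a larger one than GRB7 (6.10), so the order of the members depended on the lines set against each other.

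The members in the called stretch were not the largest differences of the SKOV3 lines. Among the 18720 genes tested, GRB7 ranked 339 and ERBB2 540 by log2 fold change. ERBB2's rank by level in SKOV3 was 2, so a high level and a large fold were not the same ordering. All 4 SKOV3-line libraries lay above the other 8 for 8 of the 10 members, the exceptions being CDK12 and IKZF3. The same held for 13.6% of all genes tested. For MED1 the lowest SKOV3-line library was only 1.02-fold above the highest of the others, and for ORMDL3 1.40-fold. The median log2 fold change was 3.60 over the 10 members and 0.08 over all genes tested.

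Along the chromosome, an unbroken run of called genes held ERBB2. From NEUROD2 to GRB7, every gene of the lists was higher in the SKOV3 lines with an adjusted p under 0.05. NEUROD2, PPP1R1B and PNMT passed the low-count filter only through the SKOV3-line libraries. Such genes entered the test only because they were high there, so their calls add no support to the run. PPP1R1B (chr17:39626707-39636624), a phosphatase inhibitor known as DARPP-32, was at 1370 and 1127 CPM in SKOV3 and SKOV3_TR and at 0.104 to 0.665 CPM in the other lines without drug. Its log2 fold change was 11.81 ± 0.73 (edgeR adjusted p 0.00131), rank 19 of all genes. PNMT (chr17:39668019-39670475), which methylates noradrenaline, had 149 and 195 counts in SKOV3 and SKOV3_TR and 0 in the other 4 vehicle libraries. With 3 counts per library as the floor, that is at least 32.4-fold higher. Beyond GRB7, IKZF3 did not pass, GSDMB (3.34, adjusted p 0.00587) and ORMDL3 did, and PSMD3 was at 0.30 (adjusted p 0.446). At the other end of the run NEUROD2, a neuronal factor at 0.953 to 2.63 CPM in the SKOV3-line libraries, had a log2 fold change of 5.95 ± 1.57 (adjusted p 0.0489), larger than those of STARD3, PGAP3 and MIEN1 inside it, and its levels overlapped those of the other lines, which reached 1.14 CPM. Beyond it, CDK12 and MED1 did not pass.

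Of 39 further genes of 17q12-q21, spread over about a megabase on each side, 34 were tested, 10 were higher and 3 lower by edgeR's test, where 11.3% of all genes were higher and 6.39% lower. The other 5 had too few counts. The higher ones outside the run included STAC2 (6.44, adjusted p 0.0419), a muscle and neural gene of few counts. STAC2 too passed the low-count filter only through the SKOV3-line libraries, as did NEUROD2, PPP1R1B and PNMT, which are also among the 10. These genes entered the test because they were high there, so their part in the 10 and in the median below is no support. TNS4, a focal adhesion gene, was lower, at -7.13 (edgeR adjusted p 0.00861). So were IGFBP4, which binds insulin-like growth factors, at -5.41 (adjusted p 0.0208) and the replication gene CDC6 at -1.91 (adjusted p 0.0161). For all 3 the SKOV3-line libraries overlapped with the others. Without drug TNS4 had 0 and 6 counts in the SKOV3 lines, 28 and 8 in the HeyA8 lines and 6697 and 3921 in the OV2008 lines. IGFBP4 had 30 and 4 counts in the SKOV3 lines, 45 and 14 in the OV2008 lines and 12885 and 10241 in the HeyA8 lines. The median over the 34 genes was 0.65. All 4 SKOV3-line libraries lay above the other 8 for 11 of the 34 genes, some of them farther out than PSMD3, and below for 1. PPP1R1B, PNMT and STAC2 are among the 11, with the same limit. Over all 18720 genes tested these counts were 2550 and 1910.

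**Figure D2:**
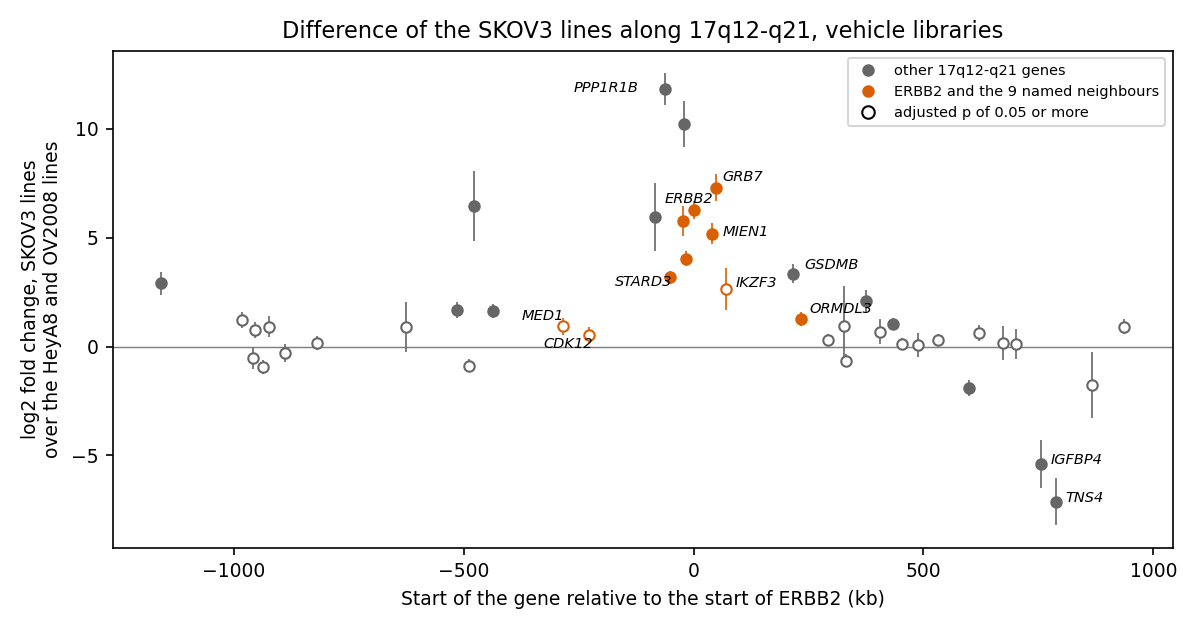
Log2 fold change of the SKOV3 lines over the HeyA8 and OV2008 lines (y axis, edgeR, 6 vehicle libraries) against the start of each gene relative to the start of ERBB2 in kb (x axis). Bars are standard errors, orange marks the 10 members and grey other 17q12-q21 genes, and open points had an adjusted p of 0.05 or more. The called run reaches from NEUROD2 (5.95) to GRB7 (7.30). CDK12 (0.54) and MED1 (0.93) lie beyond one end and IKZF3 (2.63) beyond the other. STAC2 (6.44) lies farther out beside 2 other genes that passed, CACNB1 (1.68) and FBXL20 (1.62). NEUROD2, PPP1R1B, PNMT and STAC2 passed the low-count filter only through the SKOV3-line libraries.

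The genes whose profile over the 12 libraries was most like that of ERBB2 were not its neighbours. By Pearson's correlation of log2 CPM over the 12 libraries, the nearest 10 of all tested genes were SGPP2 (0.992), PCDHB2, PPP1R1A, ZNF681, ACTN3, GARNL3, FBLN2, KIF18BP1, ZNF626 and ZNF578 (0.986), and 0 of them lie on chromosome 17. MIEN1 was the member nearest to ERBB2 (0.982, rank 44), followed by PGAP3 (0.979, rank 62), STARD3 (0.947), TCAP (0.927) and ORMDL3 (0.901). GRB7 (0.791), MED1 (0.780), IKZF3 (0.683) and CDK12 (0.579) came last. The 12 points fall into 2 clusters, 4 libraries of the SKOV3 lines and 8 of the rest, and the libraries of a line share their cells, so these values are a description of that split.

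Inside ERBB2 lies the gene of the microRNA miR-4728, whose hairpin is at chr17:39726495-39726561. It was looked up after the levels of ERBB2 had been seen. Its mature forms are printed with the seed, bases 2 to 8, in capitals, because the gene lies within ERBB2.
hsa-miR-4728-5p: uGGGAGGGgagaggcagcaagca
hsa-miR-4728-3p: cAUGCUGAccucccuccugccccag
The table gave the miR-4728 gene 22 and 8 counts in SKOV3 (vehicle and QC), 23 and 6 in SKOV3_TR, 3 in OV2008 with QC and 0 in the other 7 libraries. A library of polyadenylated RNA does not hold mature microRNAs as such, and reads on this gene cannot be told apart from reads of ERBB2.

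The 2 SKOV3 lines did not hold the members at the same level. They differed widely in other genes too. Without drug, 439 genes were at least 8-fold higher and 232 at least 8-fold lower in SKOV3_TR, with at least 100 counts in the higher library. By the same rule these numbers were 56 and 113 for HeyA8_MDR against HeyA8, and 70 and 63 for OV2008_C13 against OV2008. ERBB2 was 2.12-fold lower in SKOV3_TR than in SKOV3 without drug and 2.02-fold lower with QC. MIEN1 was 2.68-fold and 2.56-fold lower, and STARD3 was 1.59-fold and 1.23-fold lower. GRB7 went the other way, 3.57-fold higher in SKOV3_TR without drug and 5.99-fold higher with QC. CDK12 was 1.28-fold and 1.50-fold higher. PGAP3 was 1.12-fold and 1.60-fold lower, and PPP1R1B, just outside STARD3, was 1.22-fold and 1.15-fold lower. ERBB2 had 55.2 counts for each count of GRB7 in SKOV3 and 7.29 in SKOV3_TR, and 74.9 and 6.18 with QC. This ratio is taken within a library and does not depend on scaling between libraries. TCAP, IKZF3 and GSDMB were lower in SKOV3_TR without drug (log2 ratios of -0.36, -0.20 and -0.11) and higher with QC (0.39, 0.17 and 0.48). The directions of the other 8 members were shared by both treatments, which are libraries of the same lines and not replicates of resistance.

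**Figure D3:**
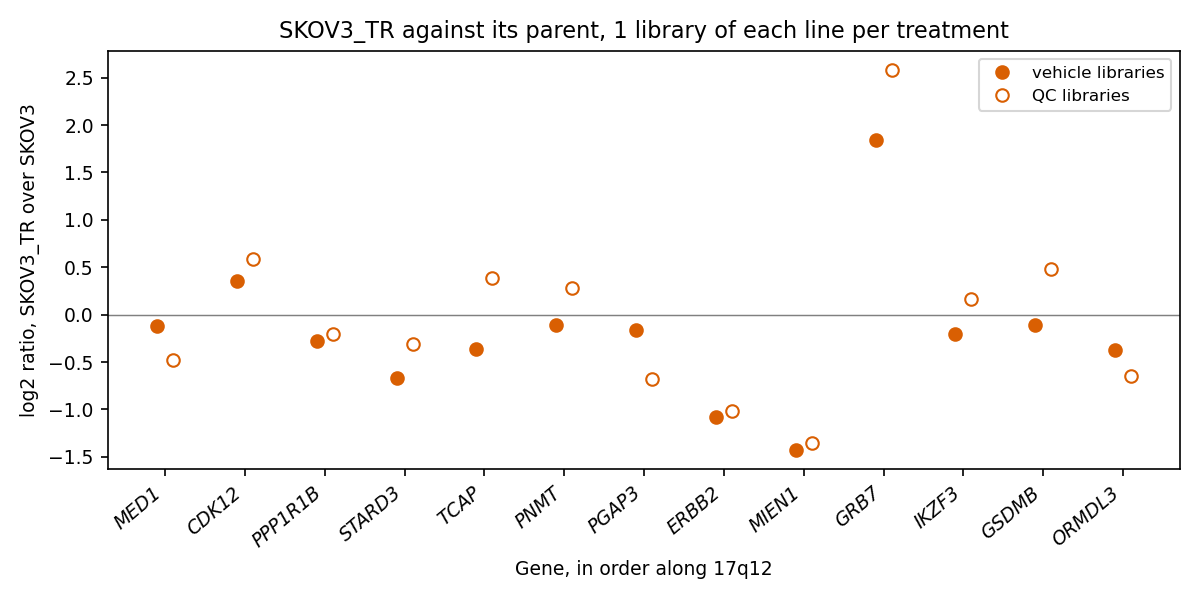
Log2 ratio of SKOV3_TR over SKOV3 (y axis) for the members, PPP1R1B, PNMT and GSDMB in order along 17q12 (x axis), from the vehicle (filled) and the QC libraries (open). GRB7 is the highest point in both treatments, and ERBB2 and MIEN1 lie below 0.

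ERBB2 was lower in the resistant partner of the other pairs too, 1.10-fold in HeyA8_MDR and 1.62-fold in OV2008_C13 without drug. In OV2008_C13 MIEN1 was 1.47-fold and GRB7 1.94-fold lower than in OV2008. Differences between pairs were not tested. Over the 3 pairs of vehicle libraries, with the family as a block and 2 residual degrees of freedom, 0 of the 10 members had an unadjusted p under 0.05 by edgeR, where 3.65% of all genes did. The difference of resistant minus sensitive lines was -0.64 ± 0.29 (SE, log2) for ERBB2, with an unadjusted p of 0.0686 in edgeR's quasi-likelihood test, and ERBB2 was lower in 3 of 3 resistant lines. For GRB7 it was 0.28 ± 0.66, and it turned to -0.83 without SKOV3 and to -0.81 without SKOV3_TR. Differences of the members lay between -0.68 (MED1) and 0.28 (GRB7), and 9 of 10 were negative. The smallest adjusted p over all genes was 0.995, so no gene passed after adjustment, 683 had an unadjusted p under 0.05, and DESeq2 called 47.

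With QC, ERBB2 was lower in 6 of 6 lines by TMM-scaled CPM. By library size alone it was higher with QC in OV2008_C13 (82.2 CPM without drug and 85.4 with QC). The level with QC as a share of the vehicle level was 0.579 in HeyA8, 0.577 in HeyA8_MDR, 0.836 in SKOV3, 0.875 in SKOV3_TR, 0.742 in OV2008 and 0.932 in OV2008_C13. Over all 6 pairs, with the cell line as a block, the change was -0.43 ± 0.14 (SE, log2), with an unadjusted p of 0.00831 and an adjusted p of 0.194 by edgeR. PGAP3 was also lower in 6 of 6 lines, with a change of -0.41 ± 0.13 and an edgeR adjusted p of 0.180. These were the 2 of 10 members with an unadjusted p under 0.05, which 15.2% of all genes had. No gene had an adjusted p under 0.05 in this fit, where 2840 had an unadjusted p under 0.05. DESeq2 called 518 genes, ERBB2 among them (adjusted p 0.0407), and edgeR without its filter called ERBB2 too (adjusted p 0.0216). Without HeyA8 the change of ERBB2 was -0.35 (edgeR adjusted p 0.366) and that of PGAP3 -0.49 (adjusted p 0.263).

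By group of lines, the change of ERBB2 was -0.49 ± 0.21 in the sensitive lines, with an unadjusted p of 0.0394 and an edgeR adjusted p of 0.729. It was the single member with an unadjusted p under 0.05 there, which 6.59% of all genes had, and without HeyA8 it was -0.35. In the resistant lines it was -0.36 ± 0.21, and -0.16 without HeyA8_MDR. PGAP3 was the single member with an unadjusted p under 0.05 in the resistant lines (-0.59 ± 0.18, edgeR adjusted p 0.817), against 6.03% of all genes. The difference between the groups, resistant minus sensitive, was 0.13 ± 0.30 for ERBB2, and -0.01 without HeyA8. For that difference 0 of 10 members had an unadjusted p under 0.05, and 1.16% of all genes did. No gene passed after adjustment by edgeR in these 3 comparisons, where 1234, 1128 and 217 had an unadjusted p under 0.05. By DESeq2, 31 genes passed in the sensitive lines, 0 in the resistant lines and 1 for the difference between groups.

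GRB7 rose more with QC in both OV2008 lines than in either SKOV3 line, with 1 library per line and treatment. Its log2 ratio of QC over vehicle was 1.20 in OV2008 and 1.27 in OV2008_C13, against -0.70 in SKOV3 and 0.05 in SKOV3_TR. In counts, OV2008 went from 491 to 1431 and OV2008_C13 from 425 to 906. TCAP had the same direction on few counts, from 4 to 20 in OV2008 and from 2 to 12 in OV2008_C13. The rise of TCAP was not particular to these lines. Its log2 ratio was 1.27 in HeyA8 (4 to 15 counts), 0.49 in HeyA8_MDR (6 to 8 counts), 0.18 in SKOV3_TR and -0.57 in SKOV3. The difference between the families was tested after these values had been seen. The SKOV3 family minus the OV2008 family was -1.56 ± 0.29 for GRB7 (log2, unadjusted p 0.000287, edgeR adjusted p 0.0886) and -2.44 ± 0.72 for TCAP (adjusted p 0.203). By edgeR 0 of 10 members had an adjusted p under 0.05, 2 had an unadjusted p under 0.05, and 0.0534% of all genes passed after adjustment. Without HeyA8 the adjusted p of GRB7 was 0.0127 and without HeyA8_MDR 0.00938. DESeq2 gave 0.00289 and called 534 genes. Without SKOV3, SKOV3_TR, OV2008 or OV2008_C13 it lay between 0.174 and 0.408, so the call depended on the setting. GSDMB, a gasdermin gene beside ORMDL3, had log2 ratios of 1.16 and 1.07 in OV2008 and OV2008_C13 and -0.32 and 0.27 in SKOV3 and SKOV3_TR.

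**Figure D4:**
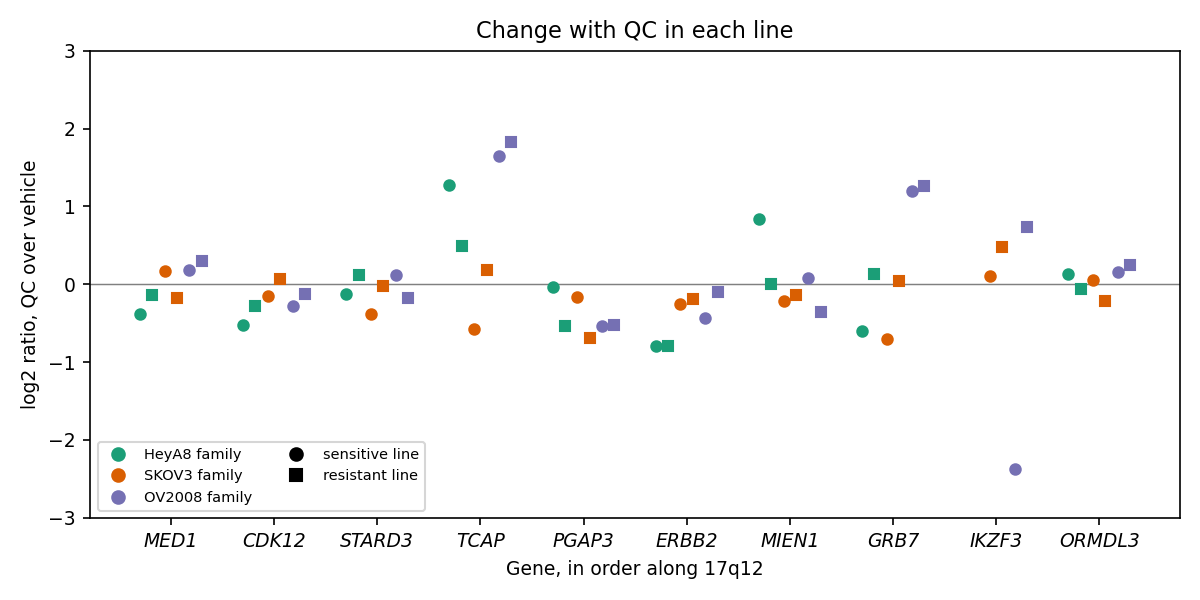
Log2 ratio of QC over vehicle (y axis) for the 10 members in order along 17q12 (x axis), 1 point per line, with colours for the families, circles for sensitive and squares for resistant lines. Lines with at most 3 counts in both libraries are left out. With TMM scaling, ERBB2 and PGAP3 lie below 0 in all 6 lines, and GRB7 lies above 1 in the OV2008 lines.

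Each of the other 6 members was higher with QC in some lines and lower in others. Log2 ratios of STARD3 ran from -0.38 to 0.13 over the 6 lines, those of ORMDL3 from -0.21 to 0.25 and those of MED1 from -0.38 to 0.30. CDK12 was lower in 5 of 6 lines, from -0.53 in HeyA8 (3284 to 2765 counts) to 0.07 in SKOV3_TR. MIEN1 was at 0.84 in HeyA8 (550 to 1192 counts), where its level with QC (43.5 CPM) lay above that of HeyA8_MDR without drug (38.5 CPM), and from -0.35 to 0.08 in the other 5 lines. IKZF3 went from 39 to 8 counts in OV2008 and from 18 to 28 in OV2008_C13.

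HER2 pairs with other receptors of its family and feeds into the RAS and PI3-kinase routes, and these genes were read from a list of 31, all of which were tested. In the SKOV3 lines 3 of them were higher and 4 lower with an adjusted p under 0.05, against 11.3% and 6.39% of all genes, and the median log2 fold change was 0.01. ERBB4, a receptor for neuregulins, was at 7.77 CPM in SKOV3 and 76.9 in SKOV3_TR and at 0 to 0.895 CPM in the other lines. Its log2 fold change was 9.67 ± 1.36 (edgeR adjusted p 0.00969). It passed the low-count filter only through the SKOV3-line libraries. ERBB3, which pairs with HER2 but has a weak kinase, was at 7.23 and 20.4 CPM in the SKOV3 lines, 37.5 and 26.4 in the OV2008 lines and at most 0.726 in the HeyA8 lines, and did not pass (adjusted p 0.0686). EGFR was at 184 and 325 CPM in the SKOV3 lines, below the 287 to 1609 CPM of the others except for an overlap of SKOV3_TR with OV2008_C13 (adjusted p 0.0553). SOS1, a RAS exchange factor, and PIK3R1, a regulatory subunit of PI3-kinase, were higher by 1.73 and 1.50 (edgeR adjusted p 0.0297 and 0.0419). GAB1, an adaptor, was at 1.36 and did not pass (adjusted p 0.0964). PTK6, a kinase that binds HER2 family receptors, was lower, at -6.40 (adjusted p 0.00996), as was CDC37, the HSP90 partner that helps kinases fold, at -1.37 (adjusted p 0.0271).

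Of 11 transcription factors listed as regulators of ERBB2, 8 were tested. In the SKOV3 lines 2 were higher and 1 lower, against 11.3% and 6.39% of all genes. ELF3, an epithelial ETS factor, was at 97.9 and 102 CPM in the SKOV3 lines, 105 and 75.1 in the OV2008 lines and under 0.105 CPM in the HeyA8 lines (log2 fold change 5.05 ± 0.33, edgeR adjusted p 0.00139). Its levels in the SKOV3 lines overlapped those in the OV2008 lines. TFAP2A, which encodes AP-2 alpha, was at 87.7 and 139 CPM in the SKOV3 lines, 62.7 and 66.3 in the OV2008 lines and at 113 and 95 counts in the HeyA8 lines (2.66 ± 0.31, adjusted p 0.00441). TFAP2C, which encodes AP-2 gamma, had 4 and 38 counts in SKOV3 and SKOV3_TR and between 39.0 and 66.9 CPM in the others (-6.17, adjusted p 0.00651). The factors SP1 (0.91), ELF1 (-0.33), ETV4 (-0.89), EHF (-0.90) and YBX1 (-1.06) did not pass, with edgeR adjusted p-values of 0.0607 or more.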

How the data were processed

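Human cell lines, described by the study as ovarian cancer lines, were profiled by RNA-seq of polyadenylated RNA with the TruSeq RNA kit, 12 libraries in all. The authors deposited raw read counts per Ensembl gene ID, made with HTSeq and without normalization. The submitters' processing notes name STAR 2.7.3a, HTSeq 0.6.1p1 and GRCh38.p13, while the methods of the study name TopHat and hg19. The annotation release and the strand setting are not given in the sources used here. Symbols came from a reference table by ID without version (58663 of 60669 IDs, 99.87% of the counts), and coordinates, promoter windows and microRNA sequences from RefSeq tables on GRCh38.p14. Promoter windows matched 7 of the 10 members. GRB7, TCAP and IKZF3 have no entry there.

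Counts were scaled by TMM (factors 0.826 to 1.15) and tested with the quasi-likelihood test of edgeR 4.0.16 in R 4.3.3, with limma 3.58.1 loaded. Genes were kept by filterByExpr (minimum count 10, minimum total 15), which left 18720. Tests were two-sided, with Benjamini-Hochberg adjustment over all tested genes. The SKOV3 comparison had a term per family (3 residual degrees of freedom), the resistance comparison a family block (2), and the QC fits a cell line block (4, 5 and 3 for the fits by resistance group, over all lines and by family). The QC block comes from the shared cell line. Deviations from the group mean of both libraries of a line correlated at 0.893 to 0.929 over genes. Standard errors are the log2 fold change divided by the square root of F. Ratios within a line or pair are differences of log2 CPM with a prior count of 2, left out where neither library exceeded 3 counts. The prior count draws ratios of few counts towards no change. The script was tested on simulated counts. Alternatives were DESeq2 1.42.0, its size factors, library size alone, no filter, no block, other reference lines or libraries and leaving out each line. Plots were drawn with matplotlib 3.10.9.

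The 10 members and the gene lists were chosen with earlier results of these data known. Named genes are the members, the 5 largest and 3 smallest log2 fold changes of each list in the SKOV3 comparison, EGFR, ERBB3, TFAP2A and TFAP2C, and the 10 genes most like ERBB2. CACNB1 and FBXL20, named in a figure caption as genes that passed near STAC2, are outside this rule. PSMD3, the marker genes named singly and the miR-4728 gene, and the ratio of ERBB2 to GRB7, were chosen after their values were seen. The marker lists held 9 epithelial, 6 squamous, 5 fibroblast, 5 leukocyte and 3 endothelial genes, of which PECAM1 has no ID in the table.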

Additional observations from a re-analysis of the deposited data

Results flagged for a closer look

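Over the lines of a family, 2 members had log2 ratios of QC over vehicle of opposite sign to those of another family. The mean ratio of MIEN1 was 0.59 higher in the HeyA8 lines than in the SKOV3 lines. Of the HeyA8 lines, HeyA8 itself gave this difference (0.84), since HeyA8_MDR was level (38.5 CPM without drug and 38.6 with QC) and lower with QC by library size alone (35.04 and 31.84 CPM). The mean of MED1 was lower in the HeyA8 lines than in the OV2008 lines, a difference of -0.49. Neither difference was tested, each family has 2 lines, and the value of MIEN1 rests on the HeyA8 QC library that stood apart.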

How the results depend on the processing

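Of 589 results recomputed under alternatives, 500 kept their direction and their side of the threshold, or stayed within 1.5 times of a count. The number of members higher in the SKOV3 lines was 6 or 7 under every alternative run, the difference being ORMDL3. Genes called in that comparison numbered 3313, against 5360 without a filter, 5170 with DESeq2, 2096 against the HeyA8 lines only, and 630 to 2938 when a line was left out. Against the OV2008 lines only, IKZF3 turned to -0.15. For QC over all lines, 1 member was called without a filter and 1 with DESeq2, in each case ERBB2, against 0 in edgeR with the filter, and all genes called rose from 0 to 791 and 518. With no replicate block the values of GRB7, MIEN1 and TCAP turned to -0.054, -0.16 and -0.067, and pairing changed no other direction there. For the SKOV3 minus OV2008 difference, 1 member (GRB7) was called without a filter and 1 with DESeq2, and ERBB2 turned to -0.11 with library size alone and to -0.012 without a filter. All genes called there were 10, against 17 with library size, 643 without a filter and 534 with DESeq2.

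With 1 line left out, GRB7 in resistant minus sensitive lines ran from -0.83 to 1.18, and ERBB2 in the QC difference between these groups from -0.012 to 0.34. Over all lines with QC, MIEN1 ran from -0.13 to 0.095, IKZF3 from -0.40 to 0.52, ORMDL3 from -0.00063 to 0.10 and MED1 from -0.078 to 0.067. In the SKOV3 minus OV2008 difference the members called ran from 0 to 1 and ERBB2 from -0.12 to 0.19. The cause of these changes was not tested, beyond the fewer lines fitted. When a line was left out of a family, the lone line was assumed to vary like the others. TCAP, IKZF3 and the GRB7 counts of the HeyA8 lines are limited by depth.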
